A study of Mus musculus with 50 samples.

Results

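M1 and M2 macrophages, the opposite ends of in vitro polarization, were compared directly with each other across all genes. The comparison used 6 of the 50 libraries of the series: the 3 libraries labelled M1 and the 3 labelled M2, each taken after 24 h of treatment. The wider study followed mouse digit tips after amputation and made these macrophages to define the 2 states. The cells were bone marrow-derived macrophages, which are bone marrow cells grown into macrophages in dishes, from female C57BL/6 mice aged 6 to 8 weeks. They were grown for 7 days with medium conditioned by L929 cells, a source of the macrophage growth factor CSF1, and were then moved to basal medium with the polarizing agents. M1 cultures received 20 ng/ml IFN-γ and 100 ng/ml LPS, and M2 cultures received 20 ng/ml IL-4. The M0 macrophages, which received basal medium with no polarizing agent, were not part of the test, since their labels give no time, and their levels are shown only as a reference. IFN-γ and LPS were always given together, so their effects cannot be told apart. Nothing in the labels says that the 3 libraries of a state came from separate animals or cultures, so each p-value measures only the spread between these libraries.

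IFN-γ, a cytokine of T cells and natural killer cells, acts through a receptor coupled to JAK kinases. LPS, a component of bacterial outer membranes, acts through the receptor TLR4, NF-κB and an autocrine wave of type I interferon. Macrophages activated this way make nitric oxide, inflammatory cytokines and proteins that attack intracellular microbes. IL-4, a cytokine of T helper 2 cells and basophils, acts through the IL-4 receptor and STAT6, and macrophages exposed to it take up lipid, express lectins and secrete chitinase-like and resistin-like proteins.

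The libraries held 15683424 to 27903334 counts in M1 and 23654863 to 25692792 in M2. Replicates resembled each other closely. Spearman's rho over genes was 0.996 to 0.998 between M1 libraries, 0.998 between M2 libraries and 0.852 to 0.865 between an M1 and an M2 library. The labelled cell type was checked on macrophage markers: Lyz2 (lysozyme) was at 5743, 5206 and 5486 normalized TPM in M1 and 5410, 5093 and 5180 in M2, and Cd68 was at 1237, 1366 and 1217 in M1 and 1679, 1529 and 1560 in M2. Both markers were abundant in all 6 libraries. Normalized TPM is a level per transcript length that was scaled between libraries, so it can be compared between genes.

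The 2 states differed across much of the transcriptome. Of 21954 listed genes, 12934 passed the filter on low counts, and 6208 of these (48%) were called different, with an adjusted p-value under 0.05 in edgeR's quasi-likelihood test and a more than 2-fold difference. Among them 2598 genes (20.1% of those tested) were higher in M1 and 3610 (27.9%) were higher in M2, and these shares are the background for every gene group described here. In 6194 of the 6208 called genes the 3 M1 and the 3 M2 values did not overlap. The same held for 11448 of all 12934 tested genes (88.5%), so it sets the called genes little apart. The median difference was 3.27-fold among genes higher in M1 and 3.99-fold among genes higher in M2. A more than 16-fold difference was reached by 153 genes higher in M1 and by 269 higher in M2. The M1 genes included many of the most abundant transcripts: genes higher in M1 supplied 54.2 to 54.9% of all counts of M1 libraries and 19.2 to 20.7% of those of M2 libraries, whereas genes higher in M2 supplied 3.90 to 4.06% in M1 and 22.9 to 24.03% in M2. This unequal composition bears on the split between the directions. With the TMM factors used here, 41.8% of the calls were higher in M1 and the median log2 fold change of all tested genes was −0.08, and when libraries were scaled by their totals alone the share was 20.97% and the median −0.70.

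**Figure D1:**
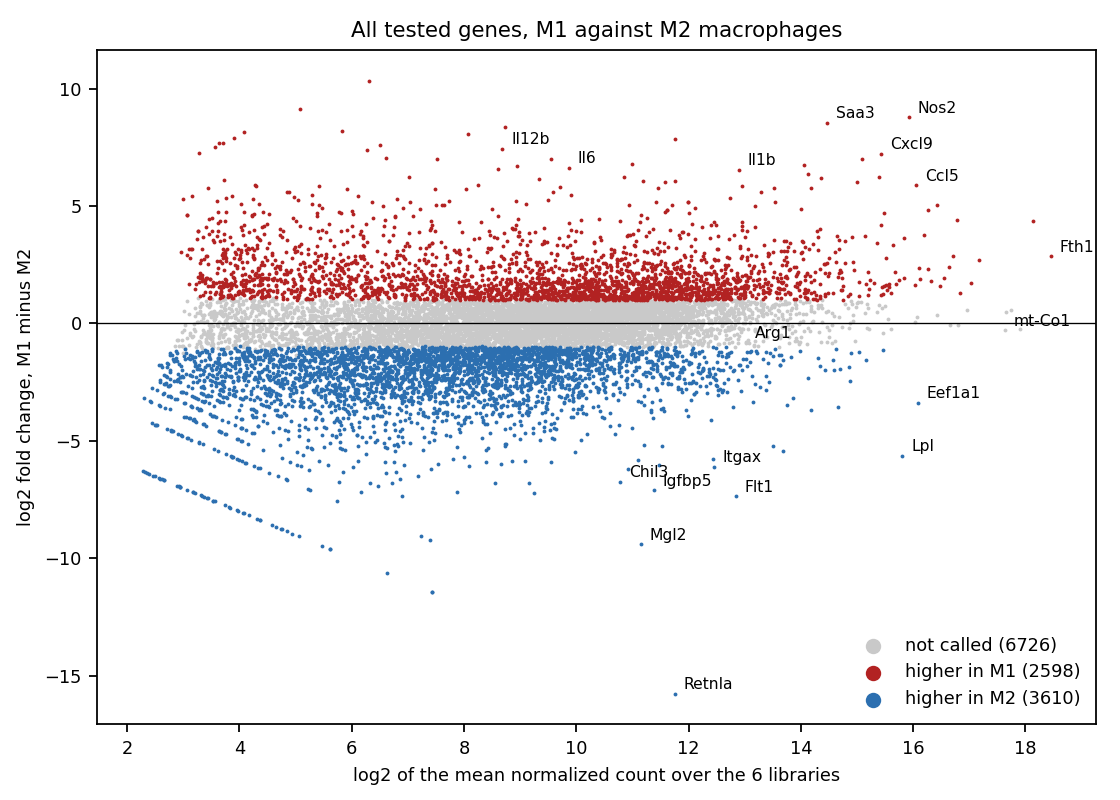
Each point is 1 of the 12934 tested genes, with the mean level over the 6 libraries on the x axis and the log2 fold change of M1 over M2 on the y axis. Genes called higher in M1 lie above 0 and genes called higher in M2 below it, with Nos2 and Saa3 near the top and Retnla at the bottom, and fold changes of genes with no counts in one state depend on the prior count of the fit.

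Textbook markers of the 2 states gave some of the widest gaps. Nos2 (chr11:78920787-78960254, GRCm38, plus strand), the inducible nitric oxide synthase, was at 2753, 2764 and 2644 normalized TPM in the M1 libraries and at 5.53, 6.64 and 6.28 in the M2 libraries. The groups lay far apart, by 8.77 ± 0.09 (SE, n = 3 per state) on the log2 scale or 438-fold, with an edgeR adjusted p of 2.78e-16. Saa3, an acute-phase serum amyloid protein, was at 10393, 10560 and 10061 in M1 against 21.3, 32.6 and 28.0 in M2, a 372-fold difference. Il12b, which encodes the subunit shared by IL-12 and IL-23, was at 43.5, 43.4 and 40.9 in M1 and below 0.5 in every M2 library (log2 fold change 7.44 ± 0.18). Il1b, the precursor of interleukin-1β, was at 1111, 1119 and 1158 in M1 and 12.1, 11.9 and 12.02 in M2, and Il6 was at 151, 173 and 154 in M1 and 1.99, 1.96 and 0.982 in M2. These 2 cytokines differed by 6.54 ± 0.06 and 6.63 ± 0.13 on the log2 scale. Smaller but separate differences were seen in Tnf, at 329, 350 and 323 in M1 and 38.0, 29.0 and 25.6 in M2 (3.41 ± 0.10), and in the costimulatory molecule Cd86, at 382, 398 and 378 in M1 and 107, 86.3 and 88.6 in M2 (2.004 ± 0.07). On the list of 12 textbook M1 genes, all 12 passed the test in the M1 direction, with a median log2 fold change of 5.98.

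On the M2 side, Retnla (chr16:48842551-48844461, GRCm38, plus strand), the secreted resistin-like molecule α, was at 0 in all 3 M1 libraries and at 1296, 1621 and 1298 normalized TPM in M2. Set against 3 counts in the smallest M1 library, it was at least 1200-fold higher in M2. Mgl2, a C-type lectin that binds galactose-type sugars, was at 0.486, 0.244 and 0.466 in M1 and at 269, 316 and 279 in M2 (log2 fold change −9.40 ± 0.14). Chil3, the chitinase-like protein Ym1, was at 1.63, 2.37 and 2.36 in M1 against 199, 234 and 235 in M2, 107-fold apart. Mrc1, the mannose receptor, was far from absent in M1: it was at 47.1, 49.1 and 41.8 there, at 534, 598 and 601 in M2 and at 863, 768 and 771 in M0. Its log2 fold change was −3.68 ± 0.08. Egr2, a transcription factor induced by IL-4, was at 1.65, 2.02 and 1.90 in M1 and 120, 124 and 120 in M2 (−6.18 ± 0.08). On the list of 12 textbook M2 genes, 9 passed the test in the M2 direction and the other 3 were not called.

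Arg1, the arginase of the urea cycle and the classical M2 enzyme of the mouse, was one of the 3 genes not called. It was at 415, 391.8 and 424 normalized TPM in M1, at 640, 789 and 692 in M2, and at 0.263, 0 and 0.268 in M0. The M2 libraries lay above every M1 library, by 1.75-fold (log2 fold change −0.81 ± 0.07, edgeR adjusted p = 7.44e-08), which is under the 2-fold threshold. The other two were named after their values were seen. Ccl22, a chemokine for T helper 2 cells, was at 32.2, 44.3 and 33.8 in M1 and 42.6, 41.6 and 33.8 in M2, with overlapping groups. Tgm2, a transglutaminase, was at 1002, 998 and 1057 in M1 and 609, 544 and 547 in M2. Thus 3 of the 12 textbook markers of M2 were expressed in M1 libraries at levels within 2-fold of M2.

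**Figure D2:**
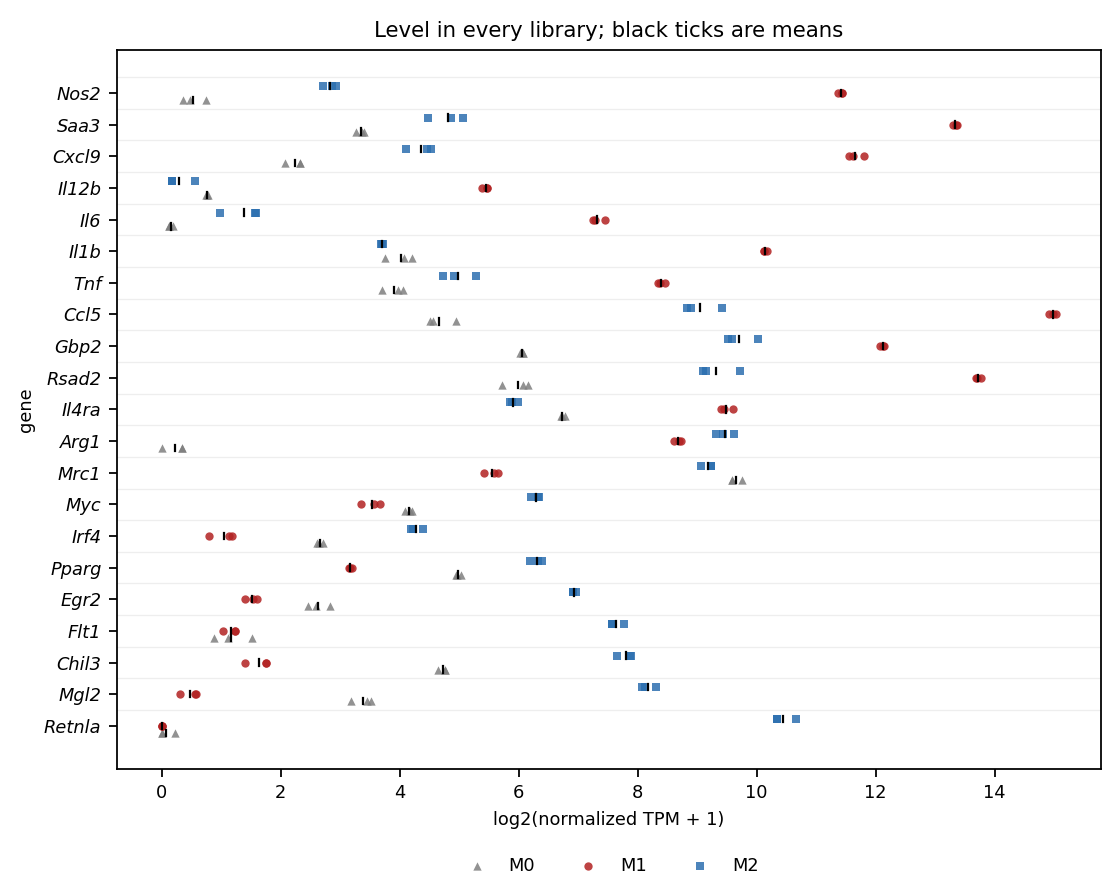
Each point is 1 library, and the x axis gives log2 of normalized TPM plus 1 for 21 named genes in M0, M1 and M2 macrophages, with 3 libraries per state. Nos2, Saa3 and Il12b separate M1 from M2 by wide gaps, Retnla and Mgl2 separate them the other way, and Arg1 lies close together in M1 and M2 and near 0 in M0.

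Large differences outside the textbook lists fell in several kinds of genes. Among those higher in M1 were 3 receptors. Fpr1, which senses formylated bacterial peptides, was at 510, 549 and 532 in M1 and at 2.55, 2.61 and 1.62 in M2 (log2 fold change 7.84 ± 0.09). Gipr, the receptor of the gut hormone GIP, was at 37.2, 31.1 and 31.2 in M1 and at most 0.144 in M2 (8.38 ± 0.23), and Il23r, the specific chain of the IL-23 receptor, was at 19.4, 21.6 and 19.8 in M1 and at most 0.125 in M2 (8.05 ± 0.19). The chemokine Cxcl9, which draws T cells through CXCR3, was at 3015, 3594 and 3128 in M1 and at 22.04, 16.3 and 20.9 in M2 (7.23 ± 0.10). Slfn4, a member of the interferon-induced schlafen family, was at 1696, 1832 and 1521 in M1 and 15.7, 13.3 and 10.7 in M2. Slc6a19, a transporter of neutral amino acids, and Rasgrf1, an exchange factor for Ras, were each 128-fold higher in M1.

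Some genes had at most 3 counts in every library of one state. With a mean of at least 100 normalized counts in the other state, 3 such genes were higher in M1 and 21 were higher in M2. The limit of 3 counts was easier to meet in M1. TMM factors were 0.80 to 0.81 in M1 and 1.21 to 1.25 in M2, and the smallest library, with 15683424 counts, was in M1. The part of this in the unequal numbers was not tested. Csf3, the granulocyte colony-stimulating factor G-CSF, was at 12.2, 11.1 and 9.56 in M1 and at most 0.117 in M2, at least 62-fold higher. Zfp811, a zinc finger gene that overlaps 2 short RNA genes on the same strand, was at least 72.7-fold higher in M1, and Dnmt3l, a cofactor of de novo DNA methylation that overlaps Aire on the other strand, at least 45.8-fold. Reads of overlapping genes cannot be told apart with certainty. Rnase2a, an eosinophil-type ribonuclease, was at 0 in every M1 library and at 54.7, 61.1 and 59.3 in M2, at least 60-fold higher there. Col6a5 (a collagen VI chain), Scn3a (a sodium channel) and Nov (the matricellular protein CCN3) were at least 59.9, 58.4 and 52.3-fold higher in M2.

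Other large differences toward M2 were found in receptors, growth factor binding proteins and the cell cycle. Flt1, the VEGF receptor 1, was at 1.35, 1.36 and 1.05 in M1 and at 218, 188 and 188 in M2 (log2 fold change −7.35 ± 0.10). Matk, a kinase that restrains Src family kinases, was at 0.499, 0.285 and 0.399 in M1 and 54.7, 59.0 and 53.0 in M2 (−7.23 ± 0.13). Igfbp5, which binds insulin-like growth factors, was 137-fold and the proteoglycan Ogn 111-fold higher in M2.

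The interferon programmes were almost wholly on the M1 side. Of 16 tested members of the IFN-γ-inducible GTPases, which attack vacuoles that hold microbes, 15 were higher in M1 (background 20.1%), with a median log2 fold change of 3.04, and of 28 type I interferon-stimulated genes 26 were higher in M1, with a median of 1.95. Gbp2b, a GTPase whose sequence is close to that of other Gbp genes, was the member of the first list not called (−0.21), and Oas3 and Zbp1 were those of the second (0.86 and 0.95). These 3 were named after their values were seen. Gbp4 was at 1941, 2088 and 2128 in M1 and at 34.8, 26.7 and 27.0 in M2 (6.03 ± 0.12). Gbp2 was at 4330, 4524 and 4457 in M1 and at 1043, 729 and 763 in M2 (2.37 ± 0.11). Both genes separated the states, but Gbp2 was also well expressed in M2. Reads of near-identical Gbp, Tgtp, Ifi200 and H2-Q copies were shared out by the counting program, so the values of single copies are less certain than those of the family.

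Rsad2, the antiviral enzyme viperin, was among the 10 most abundant transcripts of M1, at 13900, 13309 and 13247 normalized TPM, and was at 844, 548 and 565 in M2 (4.35 ± 0.15). Cxcl10, the interferon-inducible T cell chemokine, was at 8484, 8723 and 7900 in M1 and at 481, 238 and 242 in M2 (4.69 ± 0.22). Ifit1, which binds foreign RNA caps, was at 2742, 2819 and 2653 in M1 and at 317, 214 and 222 in M2 (3.43 ± 0.13). In all 3 genes M2 replicate 1 was the highest of the M2 libraries. The same held for the summed level of the list of type I interferon-stimulated genes, which was 9911, 7407 and 7793 in the M2 libraries, 55382 to 57371 in M1 and 1240 to 1898 in M0. The summed level of the GTPases was 2755, 1981 and 2086 in M2, 17978 to 19242 in M1 and 441 to 501 in M0. Every M2 library was thus above every M0 library in both sums, a difference that was not tested here. Without M2 replicate 1, 2744 genes were called higher in M1.

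Promoter sequence was set beside these levels for genes whose starts are in the RefSeq promoter table of GRCm38.p6, as windows from 250 bases before to 50 bases after the start. The interferon-stimulated response element, bound by IRF proteins, was searched as GAAANNGAAA on both strands, the gamma-activated site as TTCNNNGAA, the STAT6 site as TTCNNNNGAA and the κB site of NF-κB as GGGANNTTCC. Matches to different motifs may overlap each other. The first 250 bases of 6 promoters are shown, 4 of genes higher in M1 and 2 of the genes that most strongly mark M2, with matches to these motifs in capitals. They were chosen because they hold a match, and the windows of Tap1 and Psmb9, both higher in M1, of Mrc1 and Egr2, both higher in M2, and of Ccl22 held none, nor did that of another start of Irf1. The windows shown are those of Cxcl10 (chr5:92348890-92349139, minus strand), Gbp5 (chr3:142496684-142496933, plus), Ifit1 (chr19:34640639-34640888, plus), Irf1 (chr11:53769764-53770013, plus), Retnla (chr16:48842359-48842608, plus) and Chil3 (chr3:106167565-106167814, minus).
Cxcl10: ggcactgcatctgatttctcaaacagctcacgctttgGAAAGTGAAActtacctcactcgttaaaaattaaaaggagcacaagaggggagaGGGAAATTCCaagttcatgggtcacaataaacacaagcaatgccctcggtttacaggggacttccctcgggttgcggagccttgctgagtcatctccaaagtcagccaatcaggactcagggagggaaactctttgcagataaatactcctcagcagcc
Gbp5: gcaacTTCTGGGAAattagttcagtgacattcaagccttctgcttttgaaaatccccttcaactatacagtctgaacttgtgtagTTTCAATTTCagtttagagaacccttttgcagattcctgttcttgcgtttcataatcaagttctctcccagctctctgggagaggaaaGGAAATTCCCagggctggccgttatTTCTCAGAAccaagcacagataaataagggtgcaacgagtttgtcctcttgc
Ifit1: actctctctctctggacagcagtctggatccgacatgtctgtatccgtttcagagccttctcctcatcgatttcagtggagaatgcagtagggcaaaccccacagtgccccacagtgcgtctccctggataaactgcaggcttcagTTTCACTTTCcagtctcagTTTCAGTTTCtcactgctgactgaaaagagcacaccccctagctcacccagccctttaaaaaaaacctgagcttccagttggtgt
Irf1: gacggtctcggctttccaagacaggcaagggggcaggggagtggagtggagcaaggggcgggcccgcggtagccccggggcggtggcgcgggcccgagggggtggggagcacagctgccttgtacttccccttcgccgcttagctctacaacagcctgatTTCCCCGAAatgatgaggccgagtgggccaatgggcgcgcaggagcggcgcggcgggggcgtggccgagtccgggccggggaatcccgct
Retnla: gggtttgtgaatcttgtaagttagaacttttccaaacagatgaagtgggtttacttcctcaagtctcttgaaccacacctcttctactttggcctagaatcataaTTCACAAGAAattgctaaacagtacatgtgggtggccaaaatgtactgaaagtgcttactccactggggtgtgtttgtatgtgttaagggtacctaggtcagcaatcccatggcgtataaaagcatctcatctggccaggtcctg
Chil3: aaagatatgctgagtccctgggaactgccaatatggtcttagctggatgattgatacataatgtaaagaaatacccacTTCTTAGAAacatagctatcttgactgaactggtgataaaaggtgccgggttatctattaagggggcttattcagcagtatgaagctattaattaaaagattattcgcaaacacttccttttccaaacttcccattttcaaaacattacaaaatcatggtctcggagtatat

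The Cxcl10 window held 1 interferon-stimulated response element starting 213 bases before the start and 1 κB site at 159 bases. The Gbp5 window held matches to 3 of the motifs, with a response element at 165 bases, a κB site at 77 and gamma-activated sites at 245 and 52. Ifit1 had 2 response elements, at 104 and 85 bases. Irf1, itself a transcription factor of the interferon response, had a single gamma-activated site at 90 bases. Retnla had a STAT6 site at 145 bases and Chil3 a gamma-activated site at 172. Gbp5 was at 1493, 1634 and 1489 normalized TPM in M1 and at 174, 115 and 117 in M2.

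Over all genes, the response element was in 3.44% of 32851 promoters, in 6.17% of promoters of genes higher in M1, in 2.65% of those higher in M2 and in 2.75% of those tested and not called. Among genes more than 4-fold higher in M1 it was in 9.74%. It was in 10 of 11 promoters of the GTPases and in 14 of 29 of the type I interferon-stimulated genes. The gamma-activated site was in 8.30% of all promoters, 8.20% of those higher in M1, 7.22% of those higher in M2 and 6.64% of those not called, and the STAT6 site in 6.95, 5.71, 5.89 and 5.31%. The κB site was in 1.47, 1.91, 1.53 and 1.45% in the same order. GAGGAAGT, a site of PU.1, the master factor of macrophages, was in 3.20, 4.44, 3.39 and 2.99%, and the AP-1 site TGANTCA in 7.81, 7.70, 5.10 and 4.96%. Among genes more than 4-fold higher in M1 the AP-1 site was in 10.4%. The E-box CACGTG, which MYC and other factors bind, went the other way, with 7.15% of all promoters, 7.09% of those higher in M1, 11.5% of those higher in M2 and 9.55% of those not called. A match is a description of the letters, and binding was not measured.

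**Figure D3:**
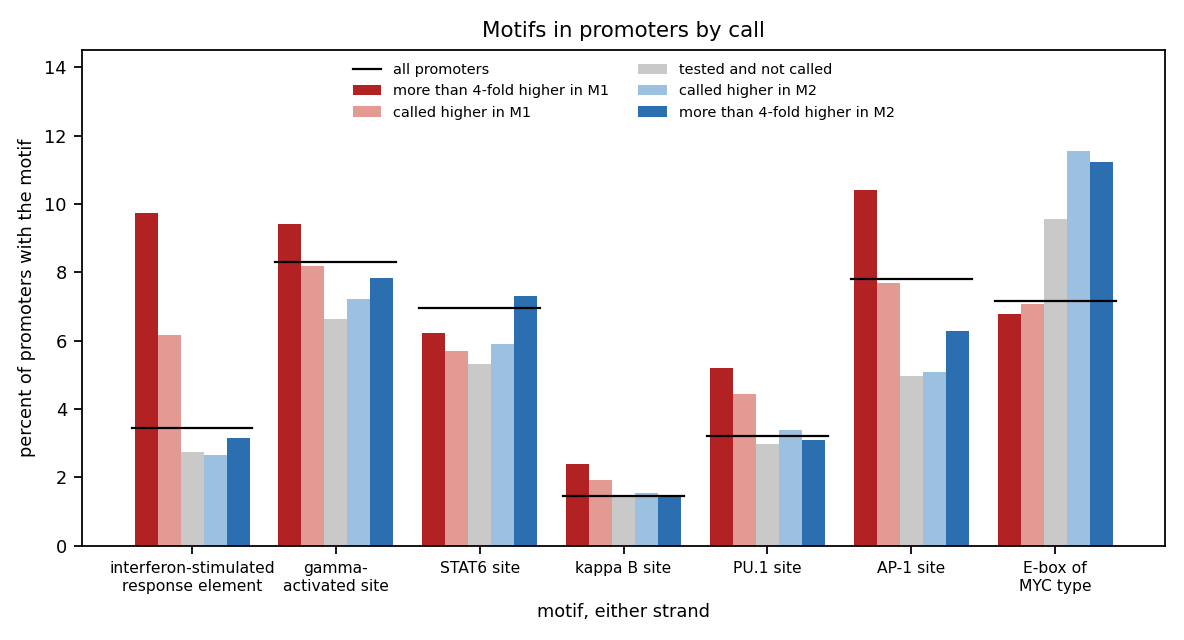
Bars give the percent of 300-base promoters that hold each motif, and black lines mark all promoters. The gene sets are those called higher in M1 or in M2, those more than 4-fold higher in M1 or in M2, and genes tested without a call. Among called genes, the interferon-stimulated response element stands out on the M1 side (6.17% against 2.65%) and the E-box on the M2 side (11.5% against 7.09%).

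The receptors and signalling proteins of the pathways themselves also differed. Ifngr1, the ligand-binding chain of the IFN-γ receptor, was at 68.3, 65.1 and 74.7 in M1 and 98.6, 107 and 104 in M2 and was not called (−0.60 ± 0.05). Irf1 was at 960, 1063 and 1017 in M1 and 323, 257 and 249 in M2 (1.77 ± 0.08). The feedback inhibitor Socs3 was at 758, 725 and 693 in M1 and 14.3, 15.5 and 14.8 in M2 (5.58 ± 0.07), whereas Socs1 was at 140, 150 and 151 against 60.0, 49.4 and 45.3 (1.49 ± 0.08). Of 25 tested JAK, STAT, IRF and SOCS genes 12 were higher in M1 and 3 in M2. Irf4, which acts downstream of IL-4, stood at the M2 end, at 0.742, 1.27 and 1.18 in M1 and 17.3, 20.1 and 17.8 in M2 (−4.15 ± 0.13). Of 12 interferon and interferon receptor genes 6 passed the filter, and 4 of these were higher in M1. Ifnb1, the type I interferon IFN-β, was at 9.62, 7.90 and 8.84 in M1 and at most 0.352 in M2, at least 23.2-fold higher.

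Il4ra, the receptor chain that binds IL-4, was higher in M1, the state that received no IL-4. It was at 778, 702 and 678 in M1, at 56.5, 58.4 and 62.6 in M2 and at 103 to 108 in M0, and M1 and M2 differed by 3.53 ± 0.07 on the log2 scale (11.5-fold, edgeR adjusted p = 1.11e-14). Stat6 was at 159, 161 and 157 in M1 and at 89.3, 86.9 and 88.2 in M2, under the 2-fold threshold. Il13ra2, the decoy receptor of IL-13, was at 21.3, 20.7 and 18.0 in M2 and between 0.702 and 1.78 in M1 (−4.22 ± 0.18). The inhibitor Cish was at 21.8, 24.1 and 20.01 in M2 and 7.56, 8.91 and 8.47 in M1 (−1.43 ± 0.09). Of 22 tested genes in a list of the IL-4 receptor and further IL-4 targets, 14 were higher in M2 and 5 in M1. The median was −1.32. The 5 were Il4ra, Klf4, Il13ra1, Ccl7 and Il2rg, and the last 4 were named after their values were seen.

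Among NF-κB subunits and inhibitors 11 of 18 were higher in M1 and none in M2. The inhibitor Nfkbia was at 963, 904 and 911 in M1 and 141, 124 and 119 in M2 (2.83 ± 0.07), and Nfkbiz, a nuclear cofactor that is needed for Il6 and Il12b transcription, at 120, 127 and 110 against 5.81, 5.55 and 4.96 (4.47 ± 0.07). A list of 30 other macrophage transcription factors split, with 8 higher in M1 and 11 in M2. Hif1a, the hypoxia-inducible factor that drives glycolytic genes, was at 254, 260 and 249 in M1 and 84.4, 77.8 and 77.2 in M2. Its relative Epas1 went the other way, at 2.21, 1.42 and 2.09 in M1 and 16.2, 17.3 and 18.4 in M2. Pparg, a lipid-sensing nuclear receptor, was at 7.83, 8.20 and 8.01 in M1 and 71.8, 79.6 and 83.0 in M2 (−3.18 ± 0.08), and Myc, a driver of growth, at 9.18, 11.8 and 10.9 against 79.6, 79.5 and 73.3 (−3.03 ± 0.07). Batf2, a partner of IRF1 in activated macrophages, was 7.18-fold higher in M1 and Cebpa 9.14-fold higher in M2.

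Cytokine genes were mostly higher in M1. Of 24 tested interleukins and other cytokines 17 were higher in M1 and 4 in M2. Il10, the anti-inflammatory interleukin often grouped with M2, was at 74.4, 77.6 and 69.2 in M1 and at 6.41, 3.38 and 4.62 in M2 (3.91 ± 0.13). Il1rn, the antagonist of the IL-1 receptor, was at 7381, 8096 and 6649 in M1 and 318, 277 and 268 in M2 (4.82 ± 0.11). So genes that restrain inflammation were also found on the M1 side. Ccl5, a chemokine for T cells and monocytes, was the second most abundant transcript of M1, at 33528, 30949 and 32169 normalized TPM, and was at 680, 453 and 478 in M2 (5.89 ± 0.14). Of 10 tested CC chemokines 6 were higher in M1 and 2 in M2. The 2 were Ccl6, at 62.0, 67.0 and 65.5 in M1 and 440, 463 and 423 in M2, and the eosinophil attractant Ccl11, whose highest level was 2.24. The CXC and CX3C chemokines were mixed, with 5 of 11 higher in M1 and 3 in M2. Chemokine receptors were called higher in M1 in 6 of 13 cases and higher in M2 in 2. Ccr7, which guides cells to lymph nodes, was at 41.8, 48.2 and 44.8 in M1 and 2.04, 2.75 and 2.55 in M2, and Ccr2, the receptor of monocyte recruitment, at 4.95, 6.18 and 4.93 against 21.1, 20.6 and 19.4.

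Growth factors leaned toward M2, with 12 of 24 higher there and 6 higher in M1. Igf1, a growth factor that macrophages secrete in repair, was at 709, 681 and 699 in M2 and 33.5, 35.3 and 35.1 in M1 (−5.42 ± 0.07, 42.9-fold). Vegfa, which drives vessel growth, was higher in M1, at 208, 187 and 216 against 49.4, 49.3 and 37.7 (1.995 ± 0.08). Its receptor Flt1 lay on the M2 side.

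Sensors of microbes and cell death genes were higher in M1 or not called in most cases. Of 24 Toll-like receptor and LPS recognition genes 10 were higher in M1, 2 in M2 and 12 were not called. Cd14, which hands LPS to TLR4, was at 1011, 906 and 1075 in M1 and 68.1, 60.6 and 62.7 in M2 (3.95 ± 0.08), while Tlr4 itself was at 94.7, 85.9 and 95.5 against 76.4, 78.0 and 85.9 and was not called. Of 18 inflammasome, caspase and gasdermin genes 12 were higher in M1. Casp4, known as caspase-11 and the sensor of LPS in the cytosol, was at 620, 659 and 595 in M1 and 82.2, 69.2 and 62.7 in M2, but the adaptor Pycard was at 8.19, 5.84 and 11.5 in M1 against 38.2, 39.7 and 40.3 in M2 (−1.75 ± 0.07). Among 23 apoptosis and survival genes 10 were higher in M1 and 2 in M2, with the death receptor Fas and the necroptosis effector Mlkl 4.90-fold and 3.37-fold higher in M1 and Bcl2 5.13-fold higher in M2.

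Antigen presentation did not move as a block. MHC class I and its peptide loading genes were higher in M1 in 14 of 22 cases, with 1 higher in M2, and MHC class II genes in 3 of 13 cases, with 4 higher in M2. The class II shares are near the background of 20.1% and 27.9%. The summed class II level was alike, at 6960 to 7412 normalized TPM in M1 and 7062 to 7507 in M2. The median log2 fold change of the class II list was −0.71, against −0.08 for all tested genes, so the equal sum does not hold for each member. B2m, the light chain of class I, was at 25788, 28156 and 25051 in M1 and 8855, 7264 and 7796 in M2 (1.70 ± 0.08). H2-K1 was 3.69-fold higher in M1. Single class II genes differed in both directions. Ciita, the activator of class II genes, was at 0.486, 0.840 and 0.599 in M1 and at 6.37, 6.15 and 5.83 in M2 (−3.34 ± 0.14). Cd74, the class II invariant chain, was at 538, 606 and 638 against 1575, 1365 and 1406 (−1.32 ± 0.07). The class II gene H2-Aa was at 128, 138 and 161 in M1 and 277, 250 and 261 in M2 and was not called (−0.90 ± 0.07). H2-Oa was 4.15-fold higher in M1. Erap1, which trims peptides for class I, was the gene of that list higher in M2. Of 20 costimulatory and coinhibitory molecules 12 were higher in M1 and 3 in M2. Cd274, the inhibitory ligand PD-L1, was at 3508, 3667 and 3506 in M1 and 296, 234 and 247 in M2 (3.76 ± 0.09), and Cd40 was 4.38-fold higher in M1.

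Surface receptors for uptake were divided. Of 33 scavenger receptors, lectins and efferocytosis genes 11 were higher in M1, 11 in M2 and 11 were not called. Marco, a scavenger receptor for bacteria, was at 490, 433 and 436 in M1 and 18.0, 11.4 and 14.3 in M2 (4.90 ± 0.11), and Clec4e, a lectin for mycobacterial glycolipid, at 555, 627 and 598 against 46.8, 34.6 and 34.1. Stab2, a receptor for hyaluronan, lay on the other side, at 0.270, 0.366 and 0.346 in M1 and 5.21, 6.18 and 6.02 in M2. Fc receptors were higher in M1 in 4 of 6 cases, with Fcgr4, an activating receptor for IgG, at 1807, 1754 and 1720 in M1 and 156, 135 and 151 in M2. Of 18 complement genes 10 were higher in M1 and 2 in M2. The factor B gene Cfb was at 513, 556 and 549 in M1 and 38.5, 23.1 and 27.6 in M2. Itgax, which encodes the complement receptor chain CD11c, was at 3.48, 4.15 and 3.65 in M1 and 261, 265 and 252 in M2 (−6.10 ± 0.07), the reverse of its sister chain Itgam (CD11b), which was named after its values were seen and was at 1038, 958 and 997 in M1 and 76.2, 81.5 and 85.7 in M2 (3.57 ± 0.07). The 2 chains thus separated the states in opposite directions.

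Among lysosomal genes 6 of 24 were higher in M1 and 5 in M2, shares near the background, and 13 were not called. The protease Ctsh was 11-fold higher in M1 and Gusb, β-glucuronidase, 4.04-fold higher in M2. Matrix genes, proteases and inhibitors were higher in M1 in 9 of 28 cases and in M2 in 12. The collagenase Mmp13 was at 925, 925 and 813 in M1 and 79.6, 74.2 and 76.8 in M2, whereas the macrophage elastase Mmp12 was at 154, 186 and 184 against 679, 718 and 680, and Fn1, fibronectin, at 132, 121 and 133 against 473, 470 and 510.

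Metabolic genes moved in both directions. Acod1, which makes the antibacterial metabolite itaconate from a tricarboxylic acid cycle intermediate, was at 6247, 6310 and 6001 in M1 and 239, 159 and 154 in M2 (5.05 ± 0.15). Glycolytic genes were higher in M1 in 14 of 22 cases and higher in M2 in 2. Pfkfb3, which makes the activator of phosphofructokinase, was at 704, 717 and 672 in M1 and 22.1, 20.6 and 22.5 in M2 (4.88 ± 0.07), and the glucose transporter Slc2a1 at 315, 283 and 282 against 43.7, 42.7 and 42.0. The pathway was not uniform, since Hk2 was at 63.0, 59.2 and 61.4 in M1 and 56.5, 56.9 and 55.9 in M2 and was not called. None of 23 tricarboxylic acid cycle genes was higher in M1 and 11 were higher in M2 (background 27.9%). The mitochondrial enzyme Idh2 was at 2.93, 3.25 and 3.77 in M1 and 44.7, 49.9 and 50.0 in M2 (−3.88 ± 0.10), and the cytosolic Idh1 at 48.7, 44.0 and 46.1 against 173, 187 and 190.

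Most arginine genes beyond Nos2 and Arg1 were not called. The 18 tested nitric oxide and arginine genes outside the textbook lists had a median log2 fold change of −0.08, like all tested genes. Of these 18 genes, 10 were not called, 7 were higher in M2 and 1 was higher in M1. The 1 was Arg2, the mitochondrial arginase, at 7.72, 8.82 and 9.01 in M1 and 0.648, 0.728 and 0.518 in M2 (3.71 ± 0.21). Spermidine synthase Srm, downstream of arginase in polyamine synthesis, was at 1.65, 1.31 and 2.20 in M1 and 61.6, 66.7 and 60.5 in M2 (−5.14 ± 0.12). Odc1, the enzyme between them, was at 75.9, 82.4 and 72.5 in M1 and 69.4, 73.3 and 73.1 in M2, with no call. Of 12 itaconate, tryptophan and NADPH oxidase genes 4 were higher in M1 and 1 in M2, and the median of 0.54 became −0.08 with library totals alone.

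Among lipid genes the cholesterol list lay on the M2 side. Lpl, the lipase that frees fatty acids from lipoproteins, was at 52.7, 42.3 and 67.1 in M1 and 2481, 2452 and 2546 in M2 (−5.64 ± 0.13, 49.7-fold). Of 23 fatty acid uptake and oxidation genes 7 were higher in M2, a share near the background, and 3 in M1, and of 25 cholesterol synthesis and efflux genes 14 were higher in M2 and none in M1. Fdps, an enzyme of the mevalonate pathway, was at 6.65, 6.03 and 7.56 in M1, 84.98, 86.8 and 78.6 in M2 and 131 to 132 in M0. Of 17 prostaglandin and leukotriene genes 4 were higher in M1 and 5 in M2, also near the background. The prostaglandin E synthase Ptges was at 193, 223 and 196 in M1 and 5.72, 6.93 and 6.55 in M2 (4.81 ± 0.07), and the leukotriene C4 synthase Ltc4s at 0.445, 0.705 and 1.38 against 26.5, 24.3 and 25.7 (−4.82 ± 0.26).

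Iron and antioxidant genes were mostly higher in M1, with the uptake receptor of transferrin as an exception. Fth1, the heavy chain of the iron store ferritin, was the most abundant transcript of M1, at 79661, 80374 and 80970 normalized TPM, and was at 11590, 10279 and 10673 in M2 (2.87 ± 0.08). The light chain Ftl1 differed less, at 16934, 16048 and 17877 in M1 and 10913, 11285 and 11231 in M2, and was not called (0.58 ± 0.07, and −0.03 with library totals alone). Tfrc, the transferrin receptor through which cells take up iron, was at 10.7, 11.6 and 13.7 in M1 and 376, 443 and 467 in M2 (−5.20 ± 0.10). Hmox1, which frees iron from heme, was at 6690, 6754 and 7050 in M1 and 521, 534 and 562 in M2. Lcn2, which binds bacterial iron carriers, was at 885, 1052 and 889 in M1 and 25.6, 28.2 and 23.8 in M2. Of 24 iron and antioxidant genes 16 were higher in M1, and Tfrc was the 1 higher in M2.

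Cell cycle genes were mostly higher in M2. Of 34 cell cycle and DNA replication genes 23 were higher in M2 and 5 in M1, with a median of −2.24. Ccna2, a cyclin of S phase and G2, was at 0.189, 0 and 0.0799 in M1, 14.9, 14.04 and 14.9 in M2 and 20.6 to 24.1 in M0 (−7.18 ± 0.22). Rrm2, which makes deoxynucleotides for replication, was at 0.216, 0.732 and 0.280 in M1 and 32.7, 32.9 and 32.4 in M2, and the mitotic genes Ccnb1 and Cenpf were 89.6-fold and 74.1-fold higher in M2. The genes higher in M1 included the cell cycle inhibitor Cdkn1a (p21), at 1182, 1212 and 1141 in M1 and 424, 378 and 399 in M2 (1.58 ± 0.06), and Ccne1, a cyclin of the entry into S phase, at 42.0, 40.8 and 40.5 against 7.49, 6.42 and 7.09. RNA levels of cell cycle genes do not give the number of dividing cells, and in bulk RNA fewer cells of a kind and less RNA per cell cannot be told apart.

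Several lists that were drawn up after the values were seen describe the translation machinery. Of 83 tested cytosolic ribosomal protein genes 77 were higher in M2 and none in M1, with a median of −2.31. All 10 translation elongation factor genes and 32 of 42 ribosome biogenesis genes were also higher in M2, as were 13 of 20 aminoacyl-tRNA synthetase genes and 23 of 52 initiation factor genes. Eef1a1, the factor that brings tRNAs to the ribosome, was at 628, 743 and 671 in M1 and 6740, 6841 and 6823 in M2 (−3.36 ± 0.08). Ribosomal protein genes supplied 0.447 to 0.496% of the counts of M1 libraries, 2.74 to 2.94% of M2 and 2.62 to 2.71% of M0, so M1 stood apart from the other two states. Among mitochondrially encoded protein genes 12 of 13 were higher in M2. They supplied 0.861 to 0.999% of counts in M1, 2.84 to 3.11% in M2 and 3.04 to 3.25% in M0. The exception was mt-Co1, at 11409, 12782 and 11150 normalized TPM in M1 and 15083, 14167 and 13354 in M2. Among nuclear genes of the same complexes 11 of 37 complex I subunit genes were higher in M2 and 1 in M1, and 10 of 31 cytochrome c oxidase and ATP synthase genes were higher in M2 and 1 in M1. The M2 shares are near the background of 27.9%, but the M1 shares are below the background of 20.1%. The list medians were −0.75 and −0.79, against −0.08 for all tested genes. With library totals alone the genes higher in M2 numbered 30 and 26. The difference from the mitochondrially encoded genes was not tested. For mitochondrial ribosomal proteins the count was 35 of 78 with none in M1. Proteasome subunits differed little, with 1 of 38 called in each direction, and their median of 0.08 became −0.54 with library totals alone. Transcript length was inferred from the ratio of counts to normalized TPM. Tested genes with a mean of at least 100 normalized counts over the 2 states were ranked by it into 10 groups of like size. The shortest group had a median log2 fold change of −0.40, against −0.02 to 0.19 in the others. The part of transcript length in these differences was not tested.

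**Figure D4:**
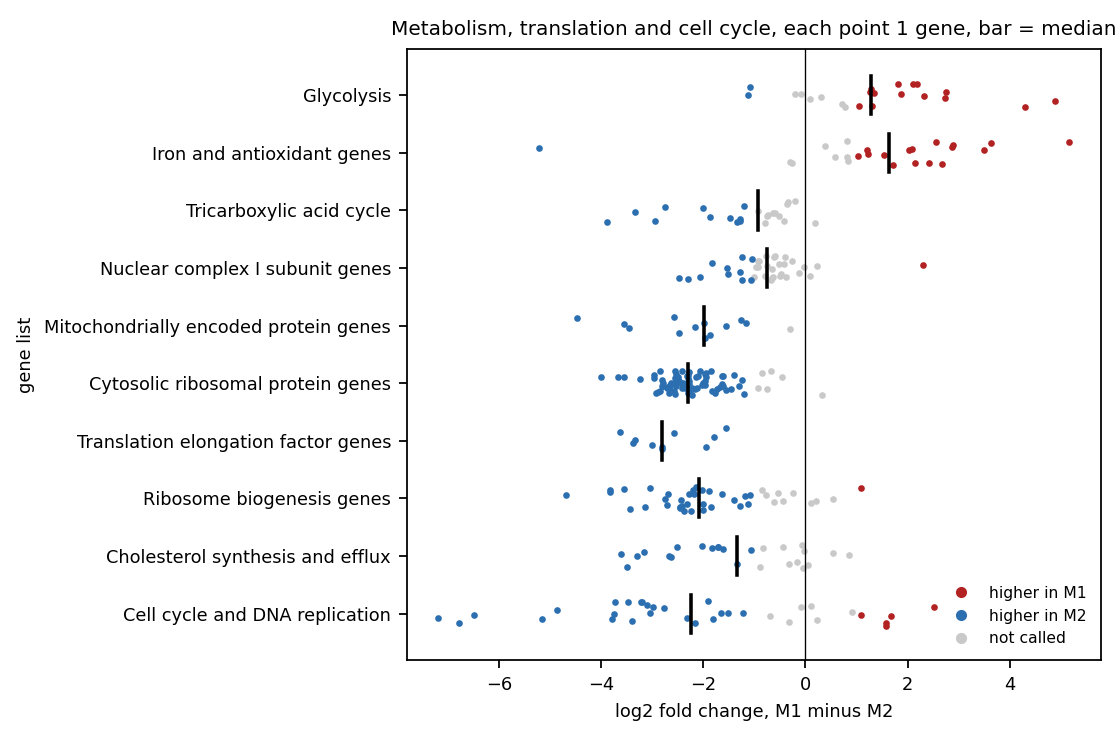
Each point is the log2 fold change of M1 over M2 of 1 tested gene in 10 gene lists of metabolism, translation and the cell cycle, and lines mark list medians. Glycolysis lies mostly above 0 (median 1.29), while the ribosomal protein genes (median −2.31), elongation factors (−2.81) and cell cycle genes (−2.24) lie mostly below it.

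Markers of cells other than macrophages also moved with the comparison. Of 9 tested neutrophil genes all 9 were higher in M2, and the summed level of the list was 32.7 to 47.9 normalized TPM in M1, 393 to 461 in M2 and 395 to 404 in M0. Elane, a granule protease of neutrophil precursors, was at 0 in every M1 library and at 1.19, 1.40 and 1.35 in M2. A gene can pass the filter on low counts through 1 state alone, as Elane did through M2. In this and the other marker lists, the directions of genes at low levels are therefore a description only. Fibroblast and stromal markers were higher in M2 in 6 of 8 cases and in M1 in 1 (Dcn), with sums of 398 to 453 in M1, 1175 to 1310 in M2 and 614 to 911 in M0, and endothelial markers were higher in M2 in 6 of 7 cases, with sums of 23.5 to 30.7 in M1 and 63.9 to 75.4 in M2. Dendritic cell markers went toward M1, with 3 of 6 higher there and 1 in M2 and sums of 56.9 to 61.5 against 9.04 to 10.8. Sums were low for B cell markers (3.37 to 3.82 in M1 and 9.57 to 10.4 in M2), for the T and NK cell list (4.99 to 7.18 and 2.49 to 3.96) and for mast cells, basophils and eosinophils (2.55 to 6.02 and 9.40 to 12.3), where Mcpt4 and Cma1 were at 0 in all 6 libraries. In the erythroid and platelet list Hbb-bs and Hbb-bt were at 0 throughout and the 1 gene tested was not called. Matrix and growth factor genes that moved toward M2, such as Fn1, Ogn and Col6a5, lie beside these stromal values, and the part of other cells in the differences was not tested. Of 18 macrophage identity genes 4 were higher in M1 and 2 in M2, and their median of 0.54 became −0.08 with library totals alone. Csf1r, the receptor of CSF1, was at 475, 440 and 515 in M1 and 1137, 1091 and 1102 in M2 (−1.24 ± 0.07), and Adgre1 (F4/80) at 1198, 1052 and 1208 against 575, 573 and 626 without a call.

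**Figure D5:**
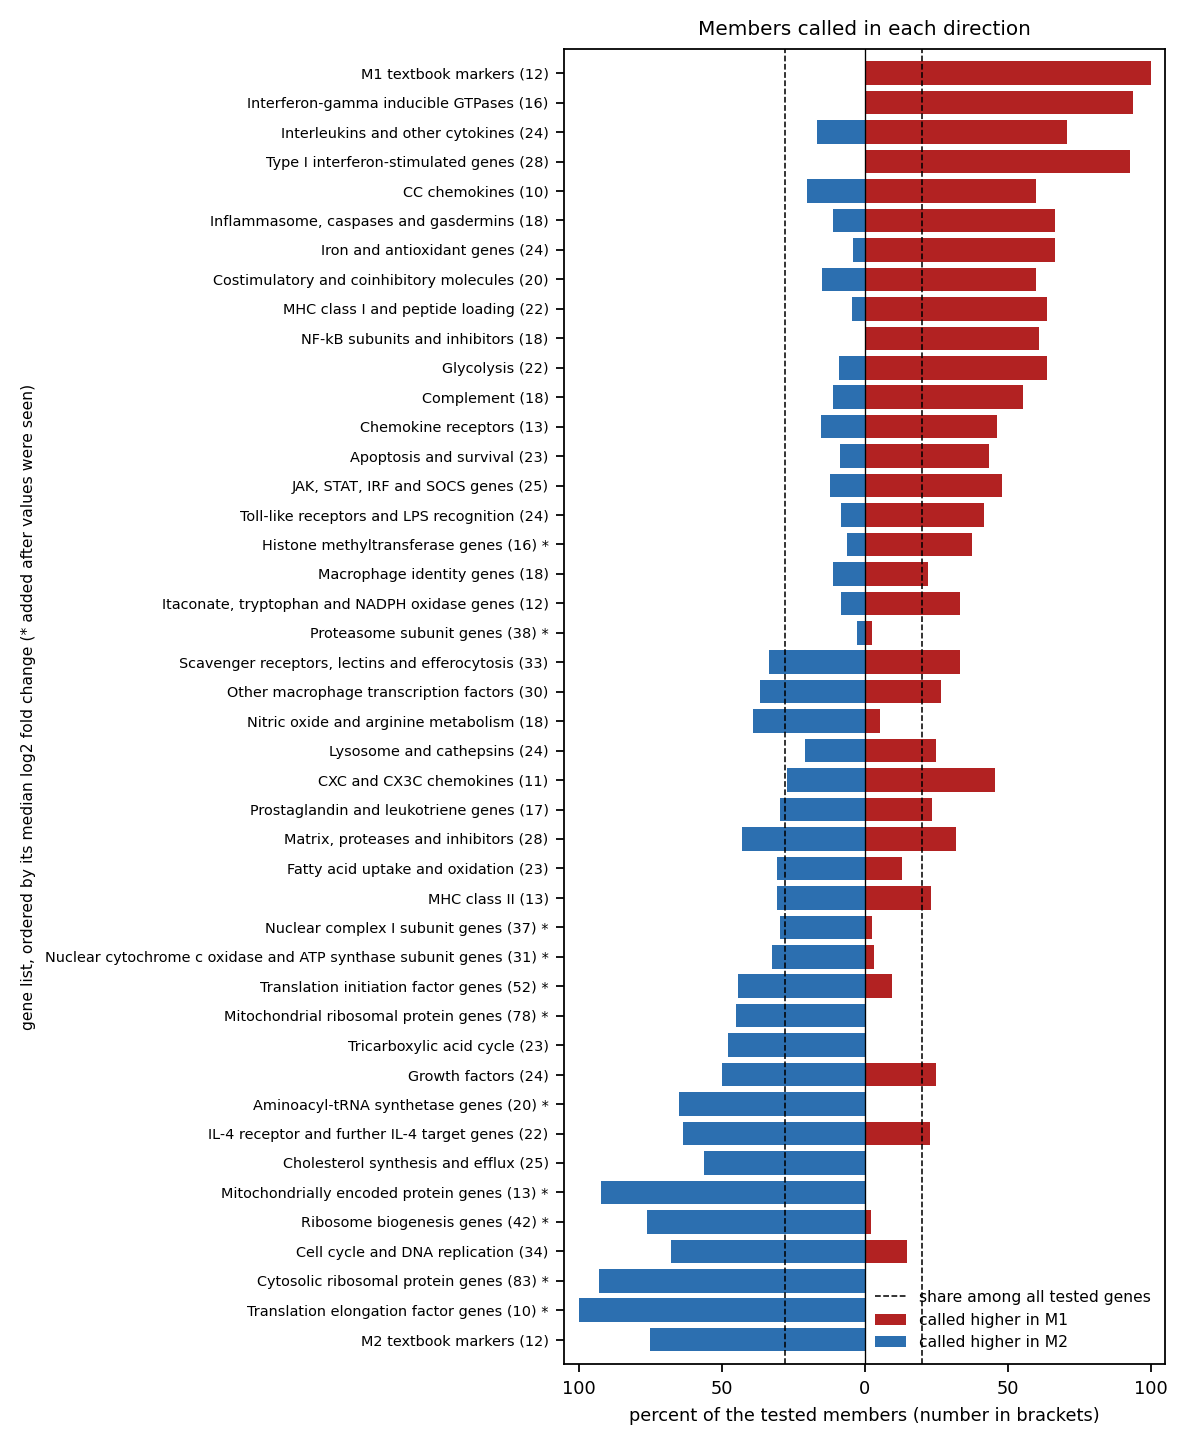
Bars give the percent of tested members of each gene list called higher in M1 or higher in M2, for lists with at least 10 tested genes that make up at least 75% of the list, and dashed lines mark the 20.1% and 27.9% of all tested genes. Lists marked with an asterisk were drawn up after the values were seen, interferon lists lie almost wholly on the M1 side, and ribosomal protein genes on the M2 side.

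The M0 libraries placed the 2 states on a common scale. Of the 2598 genes higher in M1, the mean normalized TPM of M0 lay between M1 and M2 in 1318 (50.7%), below both in 1141 (43.9%) and above both in 139 (5.35%). Of the 3610 genes higher in M2 it lay between the states in 2417 (67.0%), above both in 1003 (27.8%) and below both in 190 (5.26%). When M0 lay between, it was nearer M2 than M1 in 994 of the 1318 genes and in 1691 of the 2417. M0 was below both states for Il1rn, at 81.7 to 94.9, and above both for Mrc1, Fdps and Ccna2. These positions are a description, since the time at which M0 was taken is not labelled.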

How the data were processed

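The study's methods describe poly(A) selection, the LM-Seq protocol and single-end reads under the digit tissue. Their macrophage section states only that RNA was isolated and RNA-seq was done. Per the study's methods, the authors mapped reads with Bowtie to mouse genes of Ensembl and deposited an expected count per gene, estimated with RSEM 1.2.3, which shares out reads that match several genes. A second deposited table holds the signal that the authors call normalized TPM, to which they applied median-by-ratio scaling. Levels in the text are these values, and tests used the counts. The build is GRCm38. The labels also name CASAVA. Base calls and mapping were not repeated here.

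Expected counts were rounded and tested with edgeR 4.0.16 in R 4.3.3 (glmQLFTest after filterByExpr, TMM factors and glmQLFit) on the 3 M1 and 3 M2 libraries, without pairing. Libraries held 15683424 to 27903334 counts. Called genes had a p-value under 0.05 after Benjamini-Hochberg adjustment and differed more than 2-fold in the mean normalized count plus 1. The study used EBSeq with the same fold threshold, and EBSeq was not used here. Fold changes are M1 over M2. Errors are approximate standard errors, computed as the absolute log2 fold change divided by the square root of the test's F statistic. Where 1 state had at most 3 counts in every library, the fold is a lower bound set against 3 counts in that state's smallest library, which covers counting error only. Replicates of a state differed by a chi-square of 3.05 to 7.78 per degree of freedom, so no library was a copy of another. The fitting steps were tested on simulated data.

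Gene lists and the comparison were chosen with earlier results of these data known, and the lists of ribosomal, mitochondrial, proteasome, translation, solute carrier, histone, homeobox, olfactory receptor, schlafen, Ms4a, tripartite motif and histone methyltransferase genes were added after the values were seen. Named genes are, in each direction, the 10 called genes with the largest fold and the 5 with the largest lower bound (mean of at least 100 normalized counts in the higher state, groups that do not overlap, no placeholder names), the 10 most abundant genes of each state, key genes of the lists and the called members with the largest rise and fall of each list. Genes outside this rule are marked in the text, and some genes it covers are not reported here. Gene positions come from GENCODE vM21 (21839 of 21954 symbols matched 1 gene) and promoter sequences from RefSeq (GRCm38.p6). Alternatives were limma 3.58.1 on log2 of normalized TPM plus 1 or 0.1, DESeq2 1.42.0, other size factors, no filter, other fold thresholds, all 9 macrophage libraries in 1 fit, a replicate block and leaving out each library, and scaling by library totals alone was added after the data were seen.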

Additional observations from a re-analysis of the deposited data

How the results depend on the processing

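The counts of called genes, 2598 higher in M1 and 3610 higher in M2, stayed within 1.5 times under relative log expression size factors, no filter on low counts, DESeq2, limma on normalized TPM and the fit of all 9 macrophage libraries. With library totals alone, 1425 genes were higher in M1 and 5371 in M2. Without a fold threshold 5425 and 5934 genes were called, and with a more than 4-fold threshold 933 and 1756. Leaving out 1 library at a time gave 2618 to 2744 genes higher in M1 and 3592 to 3705 higher in M2. A replicate block gave 2600 and 3608. The labels' numbers were not taken as pairs, since the correlations between same-numbered M1 and M2 libraries were 0.020, 0.044 and 0.069, although each library correlated best with its own number, a hint from the data and not from the design. For the 206 named genes, 3357 of 3486 alternatives kept the direction and the call, 73 lost the call and 44 gained one. The sign turned in 12 cases, none of them called in either direction by the fit reported here. With library totals alone the log2 fold change became −0.0836 for Abca1, −0.13 for Actb, −0.14 for Cybb, −0.0528 for Fcgr2b, −0.0330 for Ftl1, −0.53 for Hk2, −0.57 for Lyz2, −0.55 for Odc1 and −0.43 for Tlr4, and with relative log expression size factors 0.0230 for Nfil3. Leaving out 1 library gave −0.273 to 0.0825 for Cx3cr1 (above 0 without M2 replicate 3) and −0.0537 to 0.00554 for Nfil3 (above 0 without M1 replicate 2). The direction under library totals alone follows from that scaling's shift of the median of all genes to −0.70. Genes at 0 in one state have no upper limit on their fold at this depth, and levels of near-identical gene copies are limited by how reads were shared out.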

Other observations

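Some gene families outside the macrophage polarization lists were examined after the values were seen. A gene passes the filter on low counts through 1 state alone, so in families where many members failed it the direction of those that passed is a description only. Of 39 homeobox cluster genes 20 were tested, and 16 of them were higher in M2 and 1 in M1, with a median log2 fold change of −2.02. They included a run of 8 neighbouring tested genes from Hoxc13 to Hoxc4 (chr15:102921103-103036852, GRCm38), all higher in M2. Levels were low: the 39 homeobox cluster genes together summed to 18.7 to 19.4 normalized TPM in M1, 46.2 to 46.4 in M2 and 32.8 to 40.9 in M0. Of 1083 listed olfactory receptor genes 83 passed the filter, and their directions are not counted here. The summed level of the family was 901 to 1022 normalized TPM in M1 and 150 to 194 in M2. The one with the highest level, Olfr56, at 327, 375 and 316 in M1 and 30.8, 25.9 and 22.9 in M2, has an annotated gene body that overlaps Ifi47 on the same strand, so its reads cannot be told apart with certainty, and the part of such overlaps in the other members was not tested. Of 371 solute carrier genes 216 were tested, and 50 were higher in M1 and 57 in M2, shares near the background. Of 68 tripartite motif genes 44 were tested, with 18 higher in M1 and 7 in M2. Of 79 histone genes 23 were tested, with 11 and 2 called in that order, and of 16 tested histone methyltransferase genes 6 and 1 were called. With library totals alone the numbers were 31 and 86 solute carrier, 9 and 12 tripartite motif, 6 and 6 histone and 1 and 2 histone methyltransferase genes. The background also shifted under that scaling, to 1425 genes higher in M1 and 5371 higher in M2 of the 12934 tested. Of 19 membrane-spanning 4A genes 12 were tested, and 8 were higher in M1 and 1 in M2, and of 7 schlafen genes 6 and none. The median of the solute carriers, 0.02, became −0.59 with library totals alone.

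Runs of at least 6 neighbouring tested genes numbered 22 with genes higher in M1 and 16 with genes higher in M2, and no comparison with chance was made. The longest held 18 genes, mostly olfactory receptors, in M1 and 10 mitochondrially encoded genes in M2. Most olfactory receptor genes failed the filter, and those that passed can have done so through M1 alone. The run of 18 genes is therefore a description only. Of the runs in M1, only some of those of immune families are given here. A run of 14 neighbouring tested genes from Aim2 through the Ifi200 family to Olfr433 (chr1:173350879-174044411) was higher in M1 without a gap, with a median log2 fold change of 2.32. The same was true of 10 genes around Irgm1 and the Tgtp pair (chr11:48826140-49135387, median 1.92), 7 genes from H2-D1 to H2-Q10 (chr17:35262730-35474563, median 3.50), 7 genes of the Ms4a cluster (chr19:11404770-11604849, median 2.84), 6 genes of a Gbp cluster (chr5:105014150-105293698, median 4.58) and 6 genes of the Ifit cluster (chr19:34550694-34650009, median 2.96). Genes that failed the filter were passed over in these runs, and copies of one family can share reads, so the members of a run are not independent measurements.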
